A study of Mus musculus with 8 samples.

Results

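The mouse Fc gamma receptor genes Fcgr1, Fcgr2b, Fcgr3 and Fcgr4 and their shared signalling chain Fcer1g were followed as UMI counts in tumor and blood cells. These 5 genes were taken by name, with no threshold on their values but with earlier results of these data known, out of 32285 genes in the count matrices, and all 5 were found. A UMI (unique molecular identifier) marks 1 captured RNA molecule at its 3′ end, so levels count molecules and need no scaling by gene length. Mice carried MC38 tumors, a mouse colon carcinoma line, and tumors were either left untreated (control) or given 20 Gy of local ionizing radiation (IR) and taken 3 days later. Cells were sorted as CD45+CD11b+Ly6Chi from the tumor and the blood. Both genotypes carried the floxed Ythdf2 allele. WT mice were Ythdf2 fl/fl without Cre, and cKO mice were Lyz Cre+;Ythdf2 fl/fl, in which Cre is made from the Lyz2 locus in monocytes, macrophages and neutrophils. Mice of a genotype were pooled, both genotypes of 1 tissue and treatment were marked with hashtag antibodies and run in 1 library, and so each of the 8 groups is 1 pooled sample. No p-value was computed, and every 95% interval covers counting error only.

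Fc gamma receptors bind the constant part of IgG and let myeloid cells take up and respond to antibody-coated cells. Fcgr1 (CD64, which binds monomeric IgG with high affinity), Fcgr3 (CD16) and Fcgr4 (CD16-2) are activating receptors: they pair with the Fcer1g chain, whose ITAM recruits the kinase Syk. Fcgr2b (CD32b) is the inhibitory receptor, and the ITIM in its tail recruits the phosphatase SHIP1, made from Inpp5d. In mice, monocytes and macrophages carry both kinds, neutrophils carry mainly activating ones, and NK cells carry Fcgr3 and Fcer1g.

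Fcgr1 (ENSMUSG00000015947) lies alone on chr3:96282909-96293969 of mm10 on the minus strand. The other 4 lie within 275749 bases of chromosome 1 that hold 17 genes in all. Fcgr2b (ENSMUSG00000026656) is at chr1:170958617-170976547 on the minus strand and overlaps Gm38204 on the other strand. Fcgr4 (ENSMUSG00000059089) is at chr1:171018920-171029761 on the plus strand, and Fcgr3 (ENSMUSG00000059498) is at chr1:171051174-171064935 on the minus strand. Fcer1g (ENSMUSG00000058715) is at chr1:171229572-171234365, also on the minus strand. The receptors are related in sequence, but in the last 500 bases of each member's longest transcript, where its 3′ tags fall, 0 of 451 words of 50 bases were shared with another annotated gene. Ends of the members' other transcripts were not searched.

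The promoters of Fcgr1 and Fcgr4 are shown because these were the members whose level moved most after IR. Each stretch holds bases 150 to 11 before the annotated start (RefSeq, GRCm38.p6, the same assembly as mm10), 5′ to 3′ along the gene, with motif matches in capitals.
Fcgr1, chr3:96293980-96294119, minus strand: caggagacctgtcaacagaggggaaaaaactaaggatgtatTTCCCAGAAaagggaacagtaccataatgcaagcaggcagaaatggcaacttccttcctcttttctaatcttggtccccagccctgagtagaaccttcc
Fcgr4, chr1:171018776-171018915, plus strand: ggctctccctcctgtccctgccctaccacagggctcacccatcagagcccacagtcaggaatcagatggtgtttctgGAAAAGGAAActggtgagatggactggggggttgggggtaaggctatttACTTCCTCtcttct
The motifs TTCNNNGAA (the gamma-activated sequence bound by STAT factors), 2 GAAA elements 2 bases apart (the interferon-stimulated response element, ISRE) and GAGGAAGT (a core bound by PU.1) were searched on both strands from 250 bases before to 50 after the start. TTCNNNGAA was found in 8.3% of 32851 promoters and, among the 5 members, in that of Fcgr1, 109 bases before the start. The ISRE letters were found in 3.44% of promoters and, among the members, in that of Fcgr4, 73 bases before the start. GAGGAAGT was found in 3.2% of promoters and, among the members, in that of Fcgr4, on the reverse strand 24 bases before the start. A match describes letters and is not a measured binding site.

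The kept cells numbered 2522 WT and 2148 cKO in control tumors, 3127 and 3784 in irradiated tumors, 4652 and 3807 in blood of control mice, and 4138 and 3384 in blood of irradiated mice, 27562 in all. Each group held 18901000 to 24811992 gene UMIs. Lyz2, which hosts the Cre, was lower in the cells labelled as carrying it. It was at 5620 to 14072 CPM (counts scaled to a total of 1000000 UMIs) in WT-labelled and 83.3 to 138 CPM in cKO-labelled cells. The labels still carry a doubt from Ythdf2, which was at 32.9 to 55.6 CPM in WT-labelled and 302.5 to 370 CPM in cKO-labelled cells. However, 3′ tags of Ythdf2 outside the deleted part check nothing. WT and cKO below therefore mean cells labelled so by their hashtag. The tumor matrices overlap too: of kept tumor cells, 4513 of 4670 (control) and 6720 of 6911 (IR) had their barcode in another matrix, against 63 of 8459 and 52 of 7522 in blood. The sort did not leave monocytes alone: 68.7% of blood cells (10974 of 15981) fell in neutrophil-like clusters, and 4.3% of tumor cells (498 of 11581) in a fibroblast-like one.

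Among the activating receptors, Fcgr1 separated tissues and treatments most. Its level was 46.1 CPM (95% interval 43.3 to 49.0) in WT and 47.7 (44.6 to 50.9) in cKO blood of control mice, and 58.6 (55.5 to 61.9) and 65.9 (62.3 to 69.6) in blood of irradiated mice. Control tumors held 218 CPM (212 to 224) in WT and 147 (143 to 152) in cKO cells, and irradiated tumors 529 (519 to 539) and 545 (536 to 554). Blood was thus lowest, control tumor between and irradiated tumor highest. The counting intervals of these 3 sets of groups did not overlap, but such intervals are narrow at these UMI sums. The share of all genes set apart in this way is not given here, so the separation is not read as particular to Fcgr1. The WT and cKO intervals overlapped in control blood and in irradiated tumor.

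Fcgr3, which makes CD16, varied less. It was at 398 (389 to 406), 389 (380 to 398), 446 (437 to 455) and 454 (444 to 463) CPM in control WT, control cKO, IR WT and IR cKO blood. In the same order the tumor groups were at 513 (503 to 523), 437 (429 to 446), 725 (714 to 737) and 776 (765 to 787) CPM. The control cKO tumor group overlapped the 2 irradiated blood groups, and the irradiated tumor groups stood above all others.

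Fcgr4 was the least abundant activating receptor in tumor, at 120 (115 to 125) CPM in control WT, 83.8 (80.2 to 87.6) in control cKO, 197 (191 to 203) in IR WT and 225 (220 to 231) in IR cKO cells. Blood groups were at 68.9 (65.4 to 72.5), 84.4 (80.3 to 88.6), 94.9 (90.9 to 99) and 72.1 (68.3 to 76.0) CPM in that order. The control cKO tumor value lay inside the range of the blood groups, and the other tumor groups lay above it.

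Fcer1g, the adaptor, was the most abundant member everywhere. Its level was 2338 (2317 to 2359), 1681 (1665 to 1698), 2998 (2974 to 3022) and 3042 (3020 to 3064) CPM in control WT, control cKO, IR WT and IR cKO tumor. The 4 blood groups lay between 2777 (2754 to 2799) and 2906 (2882 to 2930) CPM. Only the control tumor groups stood clearly below the rest, the cKO one lowest.

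Fcgr2b, the inhibitory receptor, followed the tissue more than the treatment. Tumor groups were at 595 (584 to 605) CPM in control WT, 583 (573 to 593) in control cKO, 602 (592 to 613) in IR WT and 748 (737 to 759) in IR cKO cells. Blood groups were at 86.6 (82.8 to 90.6), 154 (149 to 160), 103 (98.7 to 107) and 128 (123 to 133) CPM in that order. The control WT tumor interval overlapped those of control cKO and IR WT tumor, IR cKO tumor stood above, and in blood the cKO level was above the WT level under both treatments.

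**Figure D1:**
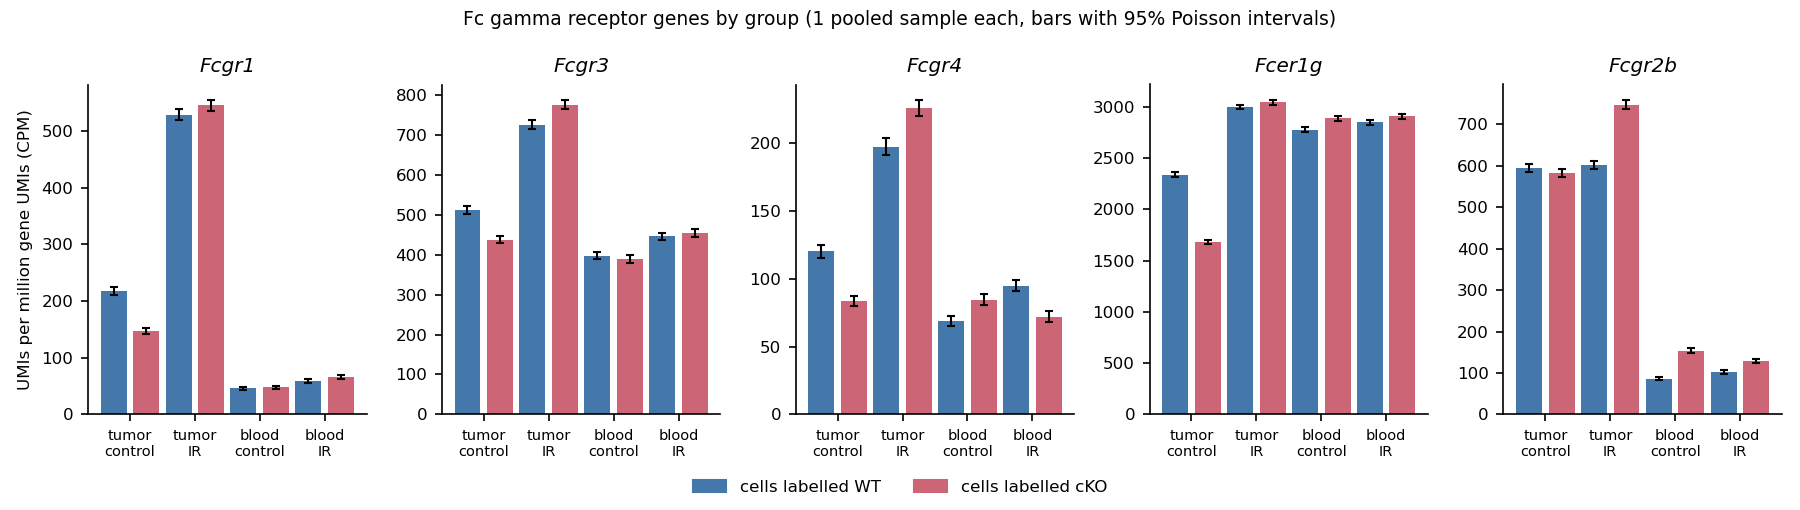
Level of each member (1 panel each) in CPM on the y axis, starting at 0, by tissue and treatment on the x axis, with blue bars for cells labelled WT and red bars for cells labelled cKO and exact 95% Poisson intervals as error bars (1 pooled sample per bar). Fcgr1 stood at 46.1 to 65.9 in blood and at 529 and 545 in irradiated tumor, while Fcgr2b was at 583 to 748 in all tumor groups.

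Between tissues, changes were called where the level differed at least 2-fold with at least 100 UMIs over both groups; this rule of size stands in for a test. Fcgr1 and Fcgr2b were higher in tumor than in blood in all 4 comparisons. On the log2 scale Fcgr1 differed by 2.24, 1.63, 3.17 and 3.05 and Fcgr2b by 2.78, 1.92, 2.55 and 2.54 in control WT, control cKO, IR WT and IR cKO cells. Fcgr4 was past the rule in irradiated mice, by 1.06 in WT and 1.64 in cKO cells. Fcgr3 differed by 0.17 to 0.77 and Fcer1g by -0.78 to 0.07, both short of it. Among all genes measured, 20.0%, 27.4%, 15.9% and 15.8% were higher in tumor in these comparisons, so a tissue difference of this size was common. In bulk sums like these, a different mix of cell types and a different level per cell cannot be told apart.

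After IR, Fcgr1 rose in tumor in both genotypes and Fcgr4 rose in cKO tumor, while Fcgr2b did not pass the rule in either. In WT tumor Fcgr1 went from 218 to 529 CPM, 2.43-fold (log2 1.28, 1.23 to 1.33), and 1.59% of measured genes had a higher ratio. In cKO tumor it went from 147 to 545 CPM, 3.70-fold (log2 1.89, 1.83 to 1.94), and 1.31% had a higher one. Fcgr4 went from 83.8 to 225 CPM in cKO tumor (log2 1.43, lower bound 1.35) and from 120 to 197 CPM in WT tumor (log2 0.71, 0.64 to 0.79), which is short of the rule. The members past the rule were 1 of 5 in WT and 2 of 5 in cKO, all higher, where 2.6% (264 of 10165) and 5.25% (561 of 10686) of all genes passed it upward and 3.19% and 17.1% downward. Fcgr3 differed by 0.50 (0.46 to 0.54) and 0.83 (0.79 to 0.86), and Fcer1g by 0.36 (0.34 to 0.38) and 0.86 (0.84 to 0.87), in WT and cKO tumor. Fcgr2b differed by 0.02 (-0.02 to 0.05) and 0.36 (0.33 to 0.39). Its sign turned with the setting, at -0.20 to 0.17 in WT and -0.08 to 0.57 in cKO tumor. Across the 13 settings tried, the Fcgr1 ratio stayed at 1.14 to 1.43 (WT) and 1.44 to 2.09 (cKO), past the rule in all 13. That of Fcgr4 in cKO tumor stayed at 0.98 to 1.63 and was past the rule in 12, the exception being the removal of clusters described next. Read from only 1 of the overlapping tumor matrices, Fcgr1 differed by 1.26 to 1.32 in cells labelled WT and by 1.87 to 1.91 in those labelled cKO. These readings are among the 13 settings and count the same barcodes again (96.0% to 97.3% were found in the other matrix). Treatment was still set by the matrix that held a cell's hashtags, so they cannot check that assignment.

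**Figure D2:**
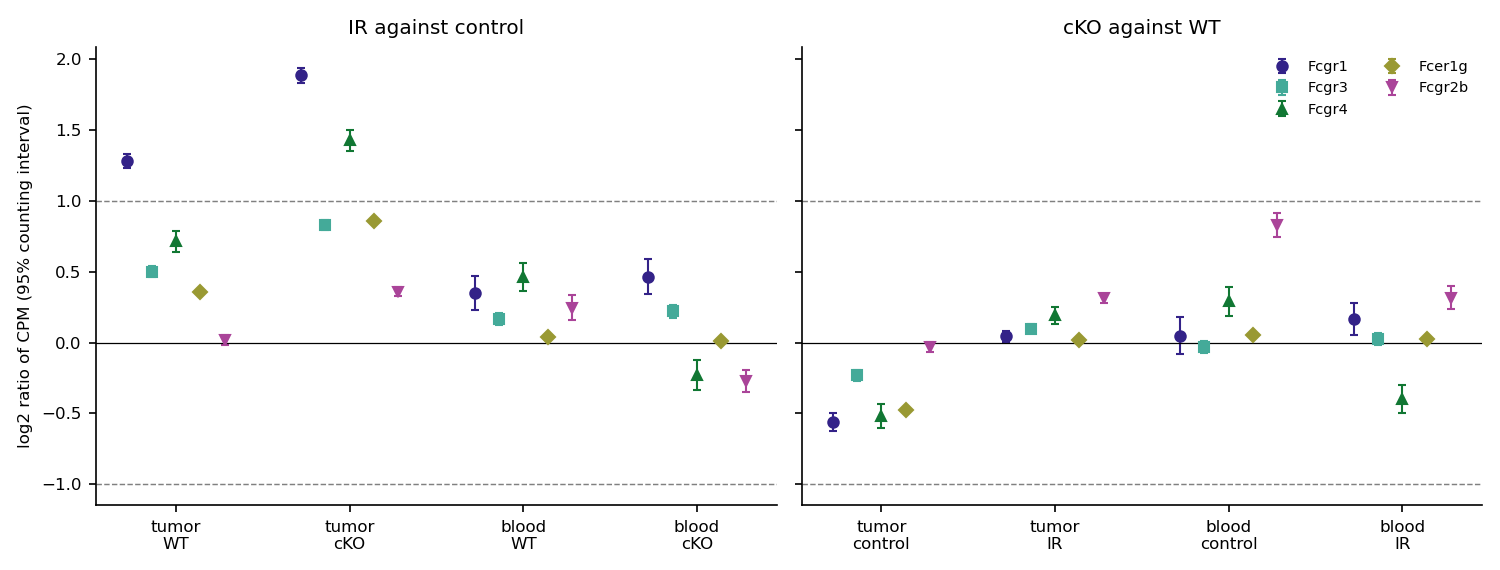
Log2 ratio of CPM on the y axis for each member (markers) by group on the x axis, IR over control in the left panel and cKO over WT in the right one, with exact 95% counting intervals as error bars and dashed lines at the 2-fold rule. Fcgr1 sat past the rule after IR in tumor, at 1.28 in WT and 1.89 in cKO, with Fcgr4 in cKO tumor at 1.43, and no member was past it in blood or between genotypes.

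Cell mixture moved with these ratios. Summed fibroblast markers, 7 of 7 detected in each tumor group, were at 734 (WT) and 1238 (cKO) CPM in control tumors and at 425 and 211 CPM after IR, and were at 0.401 to 0.935 CPM in blood. Summed monocyte markers, 8 of 8 detected, went from 3059 to 6708 CPM in WT and from 1788 to 5855 in cKO tumor, and NK markers, 7 of 7 detected, from 431 to 204 and from 157 to 288. Summed neutrophil markers, 10 or 11 of 12 detected and Camp at 0 in every tumor group, went from 253 to 2040 CPM in WT and from 279 to 1336 in cKO. Without the fibroblast-like, NK-like, T-like and B-like clusters, a set left out after seeing the data, the IR ratios in tumor were 1.14 in WT and 1.44 in cKO for Fcgr1 and 0.58 and 0.98 for Fcgr4. Those of Fcgr3 were then 0.37 and 0.38, of Fcer1g 0.25 and 0.41, and of Fcgr2b -0.12 and -0.08. Fcgr1 was still past the rule, Fcgr4 in cKO was just short of it, and the gap between genotypes was narrower for each of the 5 members. The clusters left in also shifted in number. The monocyte-like cluster led by interferon-induced genes, highest in Fcgr1 and described below, held few control tumor cells and many irradiated ones in both genotypes. Its part in the remaining ratios was not tested. RNA free in the droplets differed too: in barcodes too small to be cells, Fcgr1 was at 238 CPM in the control and 451 CPM in the irradiated tumor matrix. These matrices share most of their cell barcodes, so the free RNA of each may come from both treatments. Its part in the result was not tested.

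Levels by cell type were read from 24 clusters built without the members, of which 19 could be named from markers. Fcgr1 was highest in a monocyte-like cluster led by the interferon-induced genes Ifit1bl1, Ifit2, Rsad2 and Isg15 (1393 cells), at 1187 CPM (1165 to 1210). Next came the macrophage-like cluster led by Mmp13, Mmp12, Arg1 and Spp1 (1774 cells) at 495 (483 to 507), an unnamed cluster led by Adora2b, Havcr2 and Cxcl10 (2373 cells) at 333 (324 to 343), and the macrophage-like cluster led by Cdh1 and H2-Eb1 (2050 cells) at 312. The macrophage-like cluster led by Fcrls, Ccl8, Folr2 and Mrc1 (554 cells) was at 254, and the main monocyte-like cluster of blood (2854 cells) at 89.3 CPM. The 5 neutrophil-like clusters were at 0 to 3.39 CPM and NK-like cells at 1.21 CPM. Fcgr1 was therefore at or near the floor in neutrophil-like cells, which made up most of the blood cells.

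Fcgr3 was spread more evenly over myeloid clusters. The unnamed cluster led by Ccl3 and G0s2 (609 cells) was highest at 1187 CPM (1126 to 1250), the Mmp13 macrophage-like cluster followed at 970, and the interferon-led monocyte-like, Fcrls macrophage-like and Adora2b clusters lay at 811, 770 and 756 with overlapping intervals. The largest neutrophil-like clusters were at 589 and 573 CPM, above the main blood monocyte-like cluster at 369. NK-like cells were at 48.4 and fibroblast-like cells at 6.29 CPM. Fcgr3 was at 231 CPM or more in every neutrophil-like, monocyte-like and macrophage-like cluster, which held for no other receptor.

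Fcgr4 was highest in the Ccl3 cluster at 359 CPM (326 to 394) and the interferon-led monocyte-like cluster at 343 (331 to 355), whose intervals overlap. The Mmp13 macrophage-like cluster at 224 and the interferon-led neutrophil-like cluster (1136 cells) at 219 followed, also overlapping. In blood, Fcgr4 set neutrophil-like and nonclassical monocyte-like cells apart from the main monocyte-like cluster: the largest neutrophil-like cluster was at 161, the nonclassical cluster (1043 cells) at 148 and the main monocyte-like cluster at 14.4 CPM.

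Fcer1g was above 1000 CPM in most clusters, with 3928 (3887 to 3968) in the interferon-led monocyte-like cluster, 3537 in NK-like and 3263 in nonclassical monocyte-like cells. It was at 354 in mature dendritic-like and 33.9 in fibroblast-like cells. NK-like cells, with Fcgr3 at 48.4 CPM, held the adaptor far above any Fc gamma receptor; Fcer1g also serves other receptors. Fcgr2b was highest in the Fcrls macrophage-like cluster at 1135 CPM (1107 to 1164), then in the Mmp13 cluster at 1035 and the Cdh1 cluster at 875. It was at 662 in the interferon-led monocyte-like cluster, 184 in the main blood monocyte-like and 214 in the nonclassical cluster, and 11.7 to 18.5 in neutrophil-like clusters. The orders differ: Fcgr1 peaked in monocyte-like cells with interferon-induced genes and Fcgr2b in macrophage-like cells.

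**Figure D3:**
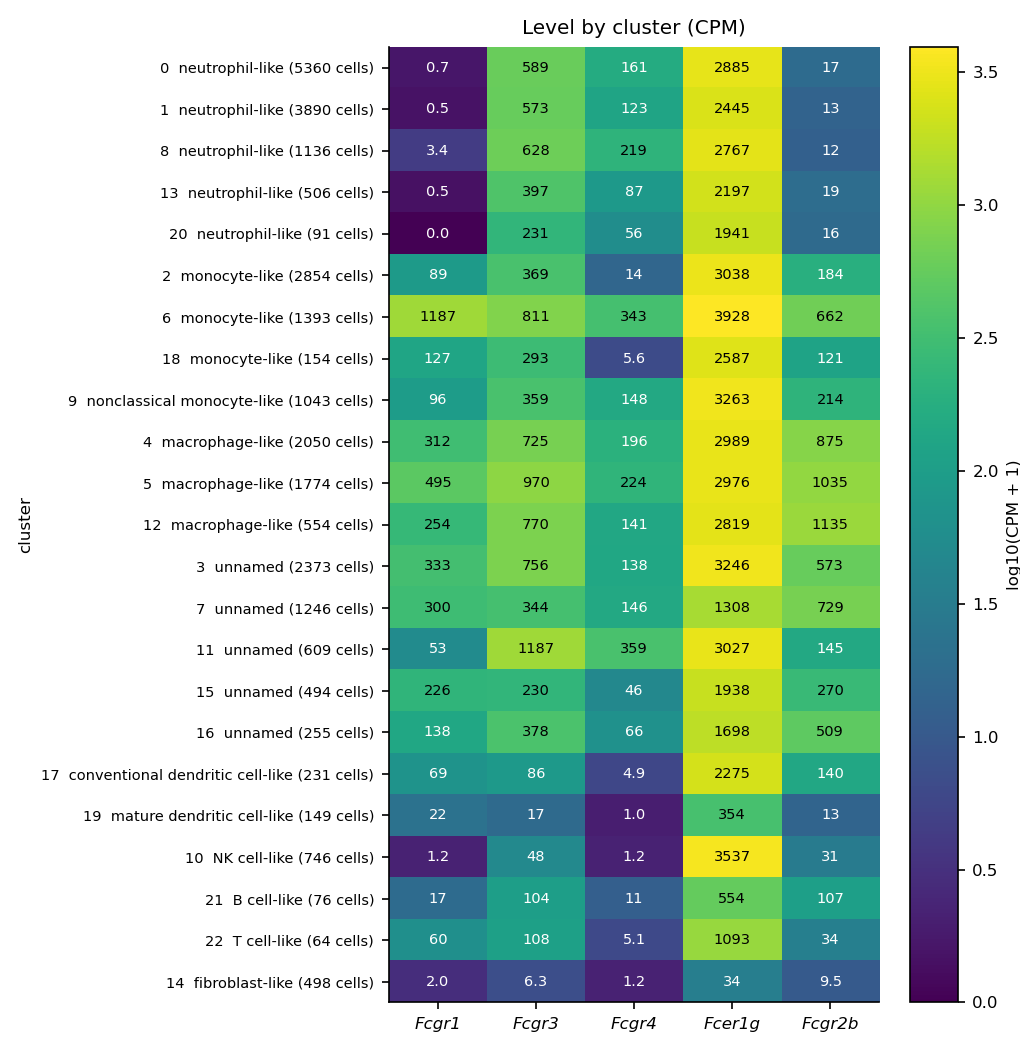
Level of each member (columns) in each cluster of at least 50 cells (rows, with their number, name and cells), printed in CPM and colored by log10(CPM + 1). Fcgr1 (0 to 3.39 CPM) and Fcgr2b (11.7 to 18.5 CPM) were low in the neutrophil-like clusters, where Fcgr3 was at 231 to 628 CPM and Fcer1g at 1941 to 2885 CPM.

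The share of single cells with a UMI was compared after each cell was thinned to 1000 UMIs, and cells with fewer were left out. Fcgr1 was seen in 65.2% (62.6 to 67.7) of interferon-led monocyte-like cells, 34.2% of Mmp13 macrophage-like cells and 7.85% of main blood monocyte-like cells. In fibroblast-like cells of the tumor, which should lack it, the share was 0.41%, and in neutrophil-like cells of the largest cluster 0.09%. For Fcgr2b the same classes gave 42.4%, 61.7%, 16.8%, 1.24% (0.46 to 2.68) and 1.48% (1.17 to 1.84), and T-like cells 1.56% (0.04 to 8.40). The fibroblast-like cells came from tumor libraries, whose free RNA held more Fcgr2b (650 and 745 CPM) than that of the blood libraries (168 and 128 CPM), so their share sets no floor for blood cells. Fcgr3 was seen in 43.4% and Fcgr4 in 13.8% of those neutrophil-like cells, against 0.83% and 0.21% of fibroblast-like cells.

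Activating and inhibitory receptors were often found in the same tumor cell. Fcgr2b together with at least 1 of Fcgr1, Fcgr3 and Fcgr4 was seen in 47.1% of Mmp13 macrophage-like, 39.1% of Fcrls macrophage-like and 38.0% of interferon-led monocyte-like cells. Fcgr2b without any of them was seen in 14.6%, 19.3% and 4.38% of the same cells. By tissue, both kinds were seen in 25.3% (WT) and 25.6% (cKO) of control tumor cells and 30.7% and 35.1% of irradiated tumor cells, against 1.41% and 3.74% in control and 1.82% and 2.67% in irradiated blood. Fcgr1 itself was seen in 18.0% and 14.5% of control and 34.4% and 35.7% of irradiated tumor cells after thinning. Unthinned, and over all kept cells, the shares were 54.8%, 53.9%, 66.4% and 70.5%. The gap between control and irradiated tumor in the share with Fcgr1 was wider after thinning, and median depth per kept cell was 7297.5 UMIs in the control and 6076 in the irradiated tumor library.

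Within clusters that held at least 50 cells in both groups, the IR difference of Fcgr1 was seen again, in each cluster at a smaller size than in the whole group. Among WT cells its interval was above 0 in 5 of 5 tumor clusters and past the rule in 1, and among cKO cells above 0 in 5 of 6 and past the rule in 4. In the Mmp13 macrophage-like cluster Fcgr1 went from 286 to 528 CPM in WT (log2 0.89, 0.74 to 1.03) and from 217 to 565 in cKO (1.38, 1.17 to 1.59), where 3.42% and 5.74% of genes in that cluster passed the rule upward. In the Cdh1 macrophage-like cluster it went from 253 to 462 (0.87, 0.77 to 0.98) and from 209 to 429 CPM (1.04, 0.94 to 1.14), with 1.37% and 2.67% of genes past the rule upward. The Adora2b cluster moved less, from 292 to 349 in WT (0.26) and from 263 to 399 in cKO (0.60), where 0.693% and 1.47% of genes passed it upward. The Fcrls cluster could be read in cKO cells only, at 253 and 283 CPM (0.16, -0.20 to 0.50). Fcgr1 thus differed with IR in the macrophage-like clusters led by Mmp13 and Cdh1 but its interval included 0 in the one led by Fcrls.

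In the low-depth unnamed cluster led by mitochondrial genes (median 1391 UMIs), Fcgr1 was past the rule in both genotypes, 1.14 (0.79 to 1.52) in WT and 1.45 (1.06 to 1.88) in cKO, beside 3.57% and 6.02% of genes past it upward. In the unnamed cluster led by Plet1, Ccl17 and Cd209a it went from 169 to 313 CPM in WT (0.89) and from 84.2 to 297 in cKO (1.80, 1.40 to 2.25), beside 2.5% and 3.74% of genes past the rule upward. The interferon-led monocyte-like cluster could not be compared by this minimum, since it held 43 WT and 13 cKO control cells. Its Fcgr1 level was 1366 CPM (1235 to 1509) in those WT control cells against 1211 after IR, and 846 (654 to 1077, 66 UMIs) in cKO control cells against 1164 after IR. WT cells of this cluster were thus no higher after IR (640 cells), while cKO cells were (696 cells), the latter on few control UMIs.

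Fcgr4 within tumor clusters was past the rule after IR in the Mmp13 macrophage-like cluster, from 83.9 to 234 CPM in WT (1.48, 1.22 to 1.75) and from 93.9 to 271 in cKO (1.52, 1.22 to 1.85). In cKO cells of the mitochondrial cluster it went from 92.6 to 208 (1.15, 0.63 to 1.74). In the Cdh1 cluster it differed by 0.24 in WT and 0.76 (0.63 to 0.89) in cKO, and in the Adora2b cluster by -0.18 (-0.35 to -0.01) and -0.03. Over the clusters measured, the IR difference of Fcgr4 thus ran from -0.18 to 1.52, and 1 interval lay below 0. Fcgr3 had an interval above 0 in 5 of 5 WT and 5 of 6 cKO comparisons. Its ratios were 0.12 to 0.46 and 0.21 to 0.48, and none passed the rule. Fcer1g differed by -0.42 to 0.53 in WT and 0.11 to 0.56 in cKO, and Fcgr2b by -0.14 to 0.22 and -0.03 to 0.13, with none past it.

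**Figure D4:**
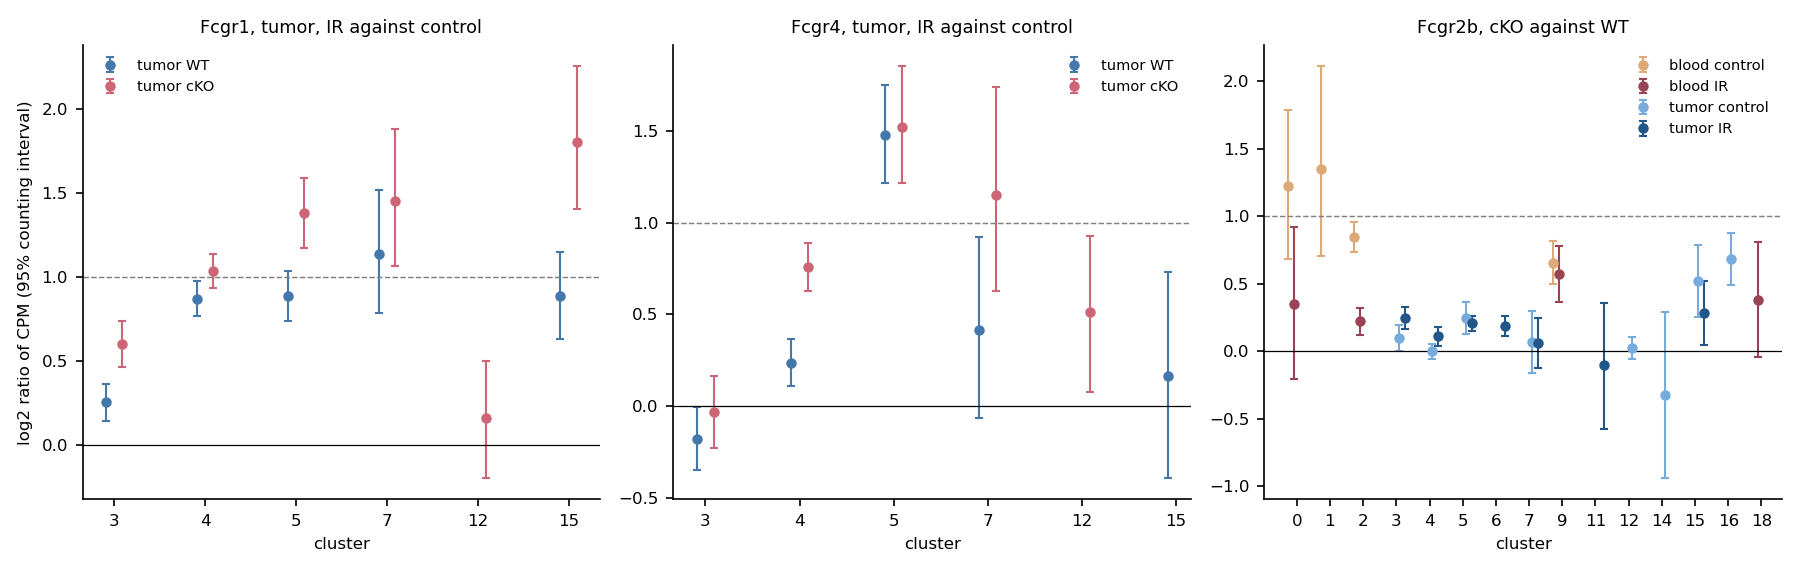
Log2 ratio of CPM on the y axis within single clusters (x axis, by number), for Fcgr1 and Fcgr4 in tumor after IR (left and middle, blue WT, red cKO) and for Fcgr2b in cKO over WT cells (right, colors for tissue and treatment), with exact 95% counting intervals as error bars and a dashed line at the 2-fold rule. Clusters 4, 5 and 12 are the macrophage-like ones led by Cdh1, Mmp13 and Fcrls, 3 the Adora2b, 7 the mitochondrial and 15 the Plet1 cluster, 0 and 1 neutrophil-like, 2 and 9 the main and nonclassical blood monocyte-like ones, and 6 the interferon-led one; Fcgr1 lay between 0.16 and 1.80.

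In blood no member passed the rule after IR, where 1.3% (127 of 9779) of genes in WT and 1.38% (131 of 9500) in cKO cells passed it in either direction. Fcgr1 differed by 0.35 (0.23 to 0.47) and 0.47 (0.34 to 0.59), Fcgr3 by 0.16 and 0.22, and Fcer1g by 0.04 and 0.01. Fcgr4 differed by 0.46 (0.37 to 0.56) in WT and -0.23 (-0.33 to -0.12) in cKO, and Fcgr2b by 0.25 (0.16 to 0.34) and -0.27 (-0.35 to -0.19). Both of the latter pairs have opposite signs with intervals that exclude 0.

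Within blood clusters, Fcgr4 had an interval above 0 after IR in 5 of 5 WT comparisons and in 1 of 5 cKO ones, with 2 below. In WT main monocyte-like cells it went from 7.20 to 19.8 CPM (log2 1.44, 1.02 to 1.91), past the rule, as 0.22% of genes in the cluster were, while cKO cells there had 15.8 and 13.9 CPM. All these levels were below Fcgr4 in the free RNA of the control (71.3 CPM) and irradiated (89.8 CPM) blood libraries, whose part was not tested. In nonclassical monocyte-like cells Fcgr4 went from 110 to 182 CPM in WT (0.73) and from 168 to 115 in cKO (-0.55). The largest neutrophil-like cluster differed alike in both genotypes, from 141 to 182 (0.36) and from 142 to 186 CPM (0.39). In the interferon-led neutrophil-like cluster it differed by 0.43 in WT and -0.42 in cKO cells. The genotypes therefore had opposite signs in nonclassical monocyte-like and interferon-led neutrophil-like cells and the same sign in the largest neutrophil-like cluster. Fcgr1 in nonclassical cells differed by 0.23 in WT and by 0.68 in cKO, from 82.7 to 132 CPM, and in the main monocyte-like cluster by 0.21 and 0.28.

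Between genotypes, 0 of 5 members passed the rule in control tumor, irradiated tumor, control blood and irradiated blood, where 4.82%, 1.27%, 2.23% and 0.642% of all genes passed it in either direction. The largest ratio was that of Fcgr2b in control blood, 154 CPM in cKO against 86.6 in WT (log2 0.83, 0.75 to 0.92), and 1.21% of measured genes had a higher one. In the other groups the Fcgr2b ratio was 0.32 (0.23 to 0.40) in irradiated blood, 0.31 (0.28 to 0.35) in irradiated tumor and -0.03 (-0.06 to 0.01) in control tumor. Within the main blood monocyte-like cluster of control mice Fcgr2b was at 247 CPM in cKO and 137 in WT cells (0.85, 0.74 to 0.96), and in nonclassical cells at 263 and 167 (0.66, 0.50 to 0.82). The same clusters after IR were at 196 and 168 (0.22, 0.13 to 0.32) and at 252 and 169 CPM (0.57, 0.37 to 0.78). Fcgr2b was thus higher in cKO than in WT monocyte-like cells of both kinds and in both treatments, short of 2-fold.

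In the largest neutrophil-like clusters of control blood, Fcgr2b was past the rule at 27.4 against 11.6 CPM (1.22, 0.69 to 1.79) and 26.3 against 10.1 CPM (1.35, 0.71 to 2.11), as 0.414% and 1.63% of genes were. Both levels were below that of free RNA in the control blood library (168 CPM Fcgr2b), which WT and cKO cells shared, and the part of free RNA in them was not tested. Fcgr2b in irradiated tumor had an interval above 0 in 5 of 7 clusters, with ratios of -0.10 to 0.28. Examples were 1112 against 963 CPM in the Mmp13 (0.21) and 703 against 616 in the interferon-led monocyte-like cluster (0.19).

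Fcgr4 between genotypes had opposite signs in blood, 0.29 (0.19 to 0.40) in control and -0.40 (-0.50 to -0.30) in irradiated mice. In main monocyte-like cells of control blood it was at 15.8 CPM in cKO and 7.20 in WT (1.12, 0.66 to 1.62), past the rule, as 0.393% of genes in the cluster were, and after IR at 13.9 and 19.8 (-0.50). Free RNA of the control and irradiated blood libraries held more Fcgr4 (71.3 and 89.8 CPM), and its part in these levels was not tested. Nonclassical cells gave 168 against 110 CPM (0.62) and 115 against 182 (-0.66). In control tumor, cKO cells were lower than WT for Fcgr1 (-0.56, -0.63 to -0.50), Fcgr4 (-0.52, -0.61 to -0.43), Fcer1g (-0.48, -0.49 to -0.46) and Fcgr3 (-0.23, -0.27 to -0.19), none past the rule. Without the fibroblast-like, NK-like, T-like and B-like clusters these ratios were -0.32, -0.27, -0.21 and 0.02, and that of Fcgr2b was 0.21. In irradiated tumor they were 0.04, 0.19, 0.02 and 0.10.

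The balance of activating to inhibitory receptors was taken as the UMIs of Fcgr1, Fcgr3 and Fcgr4 over those of Fcgr2b, counted per RNA molecule. Control blood was at 5.92 (5.64 to 6.22) for WT and 3.38 (3.24 to 3.52) for cKO cells, and irradiated blood at 5.83 (5.57 to 6.09) and 4.62 (4.42 to 4.83). In tumor it was 1.43 (1.40 to 1.46) and 1.15 (1.12 to 1.17) in control and 2.41 (2.36 to 2.46) and 2.07 (2.03 to 2.11) in irradiated mice. The ratio was lower in tumor than in blood in every pair of groups and lower in cKO than in WT in every pair. Intervals of the groups compared did not overlap, but they cover counting error only and are narrow at these UMI sums. On the log2 scale IR moved it by 0.75 (0.71 to 0.80) in WT and 0.85 (0.81 to 0.89) in cKO tumor, by -0.02 (-0.12 to 0.07) in WT blood and by 0.45 (0.36 to 0.54) in cKO blood. The cKO over WT difference was -0.32 in control tumor, or -0.13 with a 4-fold hashtag margin for both genotypes, which left 999 of the 2522 WT cells there. It was -0.22 in irradiated tumor, and -0.81 (-0.90 to -0.72) in control and -0.34 (-0.43 to -0.25) in irradiated blood.

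**Figure D5:**
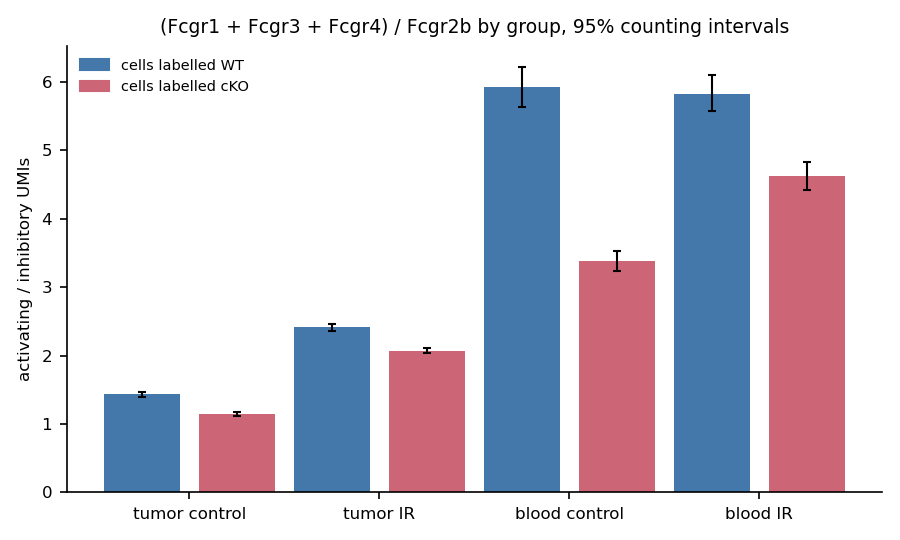
UMIs of Fcgr1, Fcgr3 and Fcgr4 over those of Fcgr2b on the y axis, starting at 0, by group on the x axis (blue WT, red cKO), with exact 95% counting intervals as error bars. The tumor groups lay between 1.15 and 2.41 and the blood groups between 3.38 and 5.92.

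The balance depends on cell type. It was 17.6 to 72.6 in neutrophil-like clusters, where Fcgr2b was at 11.7 to 18.5 CPM, 2.57 in the main blood monocyte-like, 2.82 in the nonclassical and 3.54 in the interferon-led monocyte-like cluster. The macrophage-like clusters led by Mmp13, Cdh1 and Fcrls were at 1.63, 1.41 and 1.03. Monocyte-like clusters of blood and tumor thus lay closer to each other than the blood and tumor groups did. Within clusters, IR moved the balance upward by 0.57 in WT and 0.66 in cKO cells of the Mmp13 cluster, by 0.56 and 0.58 in the Cdh1 cluster and by 0.23 and 0.31 in the Adora2b cluster. In control blood the cKO over WT difference was -0.85 in main monocyte-like and -0.47 in nonclassical cells, and after IR -0.22 and -0.66.

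Genes whose pattern was most like each member were found by Pearson's r of log2(CPM + 10) over 68 sums of cluster and group, among 7392 genes, as a description with no test, since sums share libraries and depth. Fcgr1 was closest to Ms4a6d (0.977), Sdc3 (0.943) and Fcgr2b (0.942), and Fcgr2b to Sdc3 (0.946) and Fcgr1 (0.942), with Ms4a6d at 0.938. Fcgr4 was closest to Slc16a3 (0.908), Trem1 (0.896) and Ccr1 (0.884), and Fcgr3 to Atp6v1e1 (0.905) and Prdx5 (0.901), with Fcgr4 at 0.867. Fcer1g was closest to Cd52 (0.906) and Arl6ip1 (0.891), followed by Tyrobp (0.884), which makes the related adaptor DAP12. Fcgr1 was at 0.491 with Fcgr3, 0.408 with Fcgr4 and 0.230 with Fcer1g. The inhibitory Fcgr2b was thus nearer to Fcgr1 than either of the other activating receptors was.

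The wider pathway is given for IR over control in tumor, against a median over all genes of -0.13 in WT and -0.18 in cKO. As a background to each count, 2.6% of all genes passed the rule upward and 3.19% downward in WT tumor, and 5.25% and 17.1% in cKO tumor. Fibroblast markers moved with these lists, from 1238 to 211 CPM in cKO tumor as given above, and their part in the list counts was not tested. Of 11 measured receptors and adaptors that signal through ITAMs, 0 passed the rule in WT and 6 rose in cKO tumor, with list medians of 0.50 and 1.002. Clec4d, a C-type lectin that uses the Fcer1g chain, went from 159 to 523 CPM in cKO tumor (1.72) and Clec4n, which makes Dectin-2 and uses it too, from 363 to 853 (1.23). Tyrobp differed by 0.19 in WT and 0.77 in cKO. Of 21 kinases and scaffolds downstream, 0 passed in WT and 2 rose in cKO, Lyn from 163 to 339 CPM (1.06) and Vav3 (1.09), with list medians of 0.28 and 0.61, a share not far from that of all genes. Syk went from 126 to 159 in WT (0.34) and from 90 to 157 CPM in cKO (0.80).

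Of 16 inhibitory receptors and phosphatases, Cd300lf rose in WT tumor (98.5 to 243 CPM, 1.30), and Cd300lf (1.54) and Pirb (79.9 to 185 CPM, 1.21) rose in cKO. Their list medians were 0.21 and 0.46, and Inpp5d, which makes SHIP1, differed by 0.13 and 0.43. Of 14 genes of phagocytic uptake, 0 passed the rule in either genotype, with medians of 0.05 and 0.24. Among other Fc receptors, Trim21, the cytosolic receptor for IgG, rose in WT (1.11) and cKO (1.74), and Fcgrt, the neonatal Fc receptor that recycles IgG, fell in cKO tumor from 51.7 to 20.4 CPM (-1.34).

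The interferon lists stood higher than these. All 9 measured type I interferon response genes rose in both genotypes, their median ratio being 2.63 in WT and 3.51 in cKO, led by Ifit3 (3.05 and 4.17) and Ifit1 (2.91 and 4.11). Of 11 measured interferon gamma response genes, 3 rose and 1 fell in WT and 7 rose in cKO, with medians of 0.67 and 1.19. Nos2, the inducible nitric oxide synthase, rose by 1.01 and 2.36 and Cd274, which makes PD-L1, by 1.01 and 1.73, while Cxcl9 fell in WT from 815 to 345 CPM (-1.24). Against these medians the 5 Fc gamma receptor genes had a median of 0.50 (WT) and 0.86 (cKO), and Fcgr1, at 1.28 and 1.89, lay above the interferon gamma median and below the type I median.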

How the data were processed

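Libraries were made with 10x 3′ v3.1 chemistry, and raw counts were deposited by the authors as unfiltered matrices of UMIs per gene and barcode for 4 libraries, with 2 hashtag features. The submitters' notes name Cell Ranger 6.0.1, Seurat 4.0.6 and mm10. The study's own cell filter, clusters and names were not used here, so cells were called again (OrdMag-style threshold, then a test against free RNA) with at least 200 genes and at most 25% mitochondrial UMIs. Cells had at least 20 hashtag UMIs and were labelled WT where B0301 was at or above B0302, and cKO where B0302 was at least 4 times B0301; cells in between (392 to 500 per library) were left out. The top 6% of Scrublet scores were removed, since its own threshold called 0 to 4 doublets per library.

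Cells were clustered with Seurat 5.3.0 (2000 variable genes, 40 components, resolution 0.8) without the 5 members, other Fc receptors, Ythdf2, Lyz1 and Lyz2. Levels are summed UMIs scaled to a total of 1000000 (CPM) with exact Poisson 95% intervals, and ratios carry exact conditional binomial intervals. With 1 pooled sample per group there is no test: a change was called at an absolute log2 ratio of at least 1 with at least 100 UMIs, and the genes named are the members, up to 4 per list with the largest ratio past that rule, the 5 genes most like each member and the label checks; Syk, Tyrobp and Inpp5d were named outside this rule for their role. One gene that this rule would name is not reported here. The members, although taken by name, and the lists were chosen with earlier results of these data known. Scripts ran in Python 3.11.15 (numpy 2.4.6, pandas 2.3.3, scipy 1.17.1, scanpy 1.11.5) and R 4.3.3 (edgeR 4.0.16 for normalization factors only), and the ratio and its interval were tested on simulated data. Alternatives covered the count minimum, normalization, hashtag rule, cell calling, cells left out and the matrix read.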

Additional observations from a re-analysis of the deposited data

Results flagged for a closer look

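Members whose ratio had opposite signs in matched comparisons, with both intervals away from 0, are given here. Pairs of the same sign with intervals apart are not listed. The differences themselves were not tested, as each group is 1 pooled sample. For cKO over WT, control and irradiated tumor differed for Fcgr1 (-0.56 and 0.04), Fcgr3 (-0.23 and 0.10), Fcgr4 (-0.52 and 0.19) and Fcer1g (-0.48 and 0.02). Without the fibroblast-like, NK-like, T-like and B-like clusters, Fcgr3 in control tumor was at 0.02, and Fcgr1 and Fcer1g in irradiated tumor were at -0.02 and -0.05, so these 3 pairs no longer had opposite signs. Fcgr4 also differed between control and irradiated blood (0.29 and -0.40), between control tumor and control blood (-0.52 and 0.29) and between irradiated tumor and irradiated blood (0.19 and -0.40), and Fcer1g between control tumor (-0.48) and control blood (0.06). For IR over control, Fcgr2b differed between WT and cKO blood (0.25 and -0.27) and between cKO tumor and cKO blood (0.36, or -0.08 without those clusters, and -0.27). Fcgr4 differed likewise between WT and cKO blood (0.46 and -0.23) and between cKO tumor and cKO blood (1.43 and -0.23). Barcodes with under 20 hashtag UMIs held Fcgr1 at 552 CPM in the control tumor matrix (7124 barcodes) and at 179 CPM in the irradiated one (4800 barcodes). No comparison used them except the reading from only 1 tumor matrix. Of these barcodes, 7122 and 4797 carried hashtags in the other tumor matrix, and 6478 and 4317 were kept cells there. Both levels thus come largely from cells counted above under the other treatment.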

How the results depend on the processing

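No paired analysis was possible because each group is 1 pooled sample. No difference past the 2-fold rule changed sign under the alternatives run, while these group ratios short of it did. For IR over control they were Fcgr2b in WT (-0.20 to 0.17) and cKO (-0.08 to 0.57) tumor and Fcer1g in cKO blood (-0.06 to 0.02). For cKO over WT they were Fcgr2b (-0.31 to 0.21) and Fcgr3 (-0.31 to 0.02) in control tumor, Fcgr1 (-0.02 to 0.06) and Fcer1g (-0.05 to 0.03) in irradiated tumor, and Fcgr3 (-0.02 to 0.03) and Fcer1g (-0.02 to 0.03) in irradiated blood. Fcgr4 in control cKO tumor over blood ran from -0.17 to 0.51, and the IR change of the activating to inhibitory ratio in WT blood from -0.05 to 0.03. Of the single log2 ratios recomputed, 166 moved by more than their counting interval and 770 did not. Of the levels, 108 moved and 62 did not, counting CPM by cell class under other clusterings and shares of cells under other thinning. Shares of cells with a UMI rise with the UMIs kept per cell, so these counts cannot be set against those of the ratios. The results below moved, and the cause was not tested except where a setting counts more or fewer genes or cells. With a minimum of 20 UMIs, genes called after IR were 152 higher and 247 lower in WT blood, 161 and 240 in cKO blood, and 414 and 736 in WT tumor. For cKO over WT they were then 73 and 177 in irradiated blood, 175 and 342 in control blood, 117 and 311 in irradiated tumor and 709 and 264 in control tumor, and 2483 (WT) and 2428 (cKO) were higher in irradiated tumor than blood. With TMM scaling, which shifted log2 ratios for IR by 0.15 in WT and 0.21 in cKO tumor and tumor over blood by -0.16 in control cKO and 0.11 in IR cKO cells, 860 genes were higher in cKO and 187 lower in WT tumor after IR, and 4 members were past the rule in cKO tumor, Fcgr3 (1.03) and Fcer1g (1.06) added.
With a 4-fold hashtag margin for both genotypes (999 WT cells in control tumor), 721 genes were higher in cKO control tumor, 193 were lower after IR in WT tumor, and log2 differences of the activating to inhibitory ratio were 0.90 (IR, WT tumor), -0.13 (cKO over WT, control tumor) and -2.21 (tumor over blood, control WT). Without the fibroblast-like, NK-like, T-like and B-like clusters, a set chosen after seeing the data, 218 genes were higher and 68 lower in cKO control tumor, 54 lower in cKO control blood and 10 in cKO irradiated tumor. After IR 39 were then lower in WT blood and 632 in cKO tumor, 1750 were higher in control cKO tumor than blood, and 1 member, Fcgr1, passed the rule in cKO tumor (Fcgr4 0.98). Read from the irradiated tumor matrix alone, 83 genes were lower in cKO control tumor, and IR moved the ratio by 0.68 in WT and 0.79 in cKO tumor. With HTODemux labels it moved by 0.80 in cKO tumor, and the cKO difference in irradiated tumor was -0.28. With every barcode of 500 or more UMIs kept, the ratio differed between irradiated tumor and blood by -1.34 in WT and -1.23 in cKO. The number of cells limits the interferon-led monocyte-like cluster of control tumors (43 WT and 13 cKO cells).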
